A study of Mus musculus with 14 samples.

Results

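The response of wild-type mouse kidney to obstruction was taken from the 7 wild-type libraries among the 14 libraries of the series: 3 labelled WT_normal and 4 labelled WT_UUO. UUO is unilateral ureteral obstruction, the surgical closure of the ureter of 1 kidney, and the labels give 7 days of it; the normal kidneys carry no treatment in the labels. The other 7 libraries bear a Smoc2 transgenic label and enter only the shared estimate of spread and a closing comparison. Members were all genes that passed a filter on low counts over the 14 libraries, which left 17926 of the 47729 genes in each file. The filter used no difference between the groups. The gene lists, however, were drawn up with earlier results of these data known, so counts over them are description and no independent evidence. The treatment text of these samples speaks of folic acid and male Balb/c mice, whereas their genotype and treatment labels, which set the groups here, name obstruction; no other strain, age or sex is given. Levels of Xist, an RNA that silences an X chromosome in females, were 1116, 964 and 1087 CPM (counts per 1000000 counts) in the normal and 1423, 1219, 1315 and 1389 CPM in the UUO libraries, against the word male in that text. Whether every library had a separate mouse as its source is not stated, and p-values then reflect only how far these libraries differ, part of which may be technical. Whole kidney was sequenced, so fewer cells of a type and less RNA per cell cannot be told apart.

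The kidney is built from nephrons, tubes that begin at a filter, the glomerulus, and run through the proximal tubule, the loop of Henle, the distal convoluted and connecting tubules and into the collecting duct. Each segment owes its work to its own channels, pumps and enzymes. When the outflow is blocked, urine backs up and the tubules widen, and the model is known for loss of tubule cells, inflammation and scarring of the space between tubules without much direct toxicity. Proximal tubule cells are the bulk of the cortex and burn fatty acids to drive reabsorption.

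Total counts ran from 22104417 to 30033405 in the normal and from 20667885 to 26171382 in the UUO libraries. All levels in CPM refer to the scaled library size. Values in sentences follow the library numbers of the labels, 1 to 3 for normal and 1 to 4 for UUO. A log2 change is UUO minus normal from the fit across all genes and is followed by ± its standard error. The words rose, fell and changed are kept for genes with an adjusted p under 0.05 in edgeR. Counts over a gene list are out of its tested members: 993 of the 1043 distinct symbols in the lists passed the filter on low counts, which a gene can pass through the group where it is high. Reads on ribosomal RNA loci made up 2.0% of the counts of UUO library 3 and 0.0295% to 0.244% of those of the other 6 wild-type libraries.

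Most genes tested changed between normal and obstructed kidney. Of 17926 genes, 5603 rose (31.3%) and 5347 fell (29.8%), which together is 61.1%. Counts over the gene lists below stand against these shares. All calls are relative to the scaling of the libraries (TMM). Its factors ran from 0.8099 to 0.8553 in normal and from 1.133 to 1.196 in UUO libraries. With upper-quartile scaling in its place 6541 genes rose and 4514 fell, so the balance of rises and falls depends on the scaling. Beyond 2-fold, by a test against that size, 2163 genes rose (12.1%) and 1423 fell (7.94%). At the other end, 4932 genes (27.5%) had a 95% interval that lay wholly within 1.5-fold, and such genes are called bounded here. Among the 6976 genes without a call, 3520 were bounded and 3456 were not, so that for the latter a change of more than 1.5-fold was neither called nor excluded. The middle of the distribution of log2 changes was at 0.05, its 1st percentile at -3.15 and its 99th percentile at 4.83. Fitted rises of at least 16-fold numbered 348 and falls of that size 58.

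The shares of genes that rose and fell differed between classes of abundance. Abundance between genes was compared as counts per kilobase of exon, with each library brought to the same total over protein-coding genes, called length-scaled here. Among the 77 genes with a mean length-scaled level of at least 1000, 50 fell and 15 rose, with a median log2 change of -1.14. Between 100 and 1000, 827 of 1413 genes fell and 319 rose. Among the 1421 genes below 1, 594 rose and 171 fell, with a median of 0.92. The class from 10 to 100 held the most changed genes of either kind, with 2994 of 8101 lower and 2351 higher. The share of a class that fell thus went up with level, from 12% below 1 to 64.9% at 1000 or more. The class of a gene was set by the mean of its normal and UUO levels, so class and change are not independent. A gene of the lowest class can also pass the filter through obstructed libraries alone. How much of the trend comes from either was not tested.

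**Figure D1:**
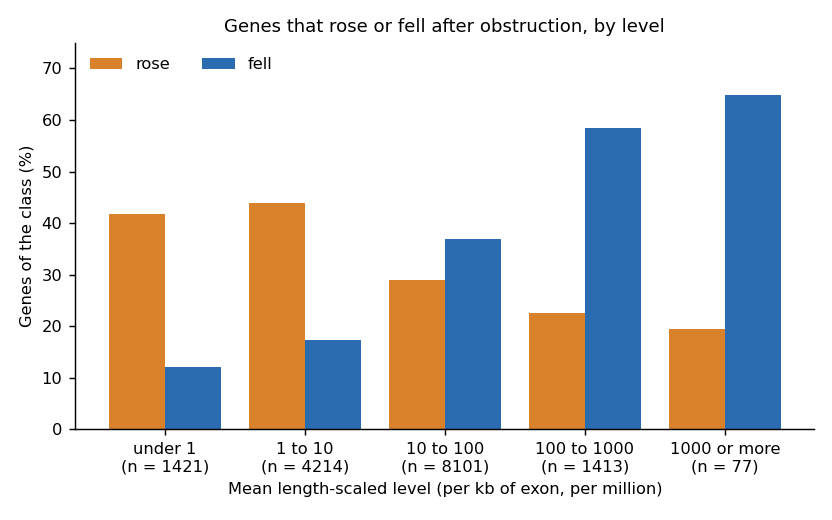
Share of tested genes that rose (orange) or fell (blue) at an adjusted p under 0.05, as percent of the genes in each class of mean length-scaled level. The share that fell grows from 12% in the lowest to 64.9% in the highest class, and the share that rose goes from 41.8% to 19.5%. Classes were set by the mean of the normal and UUO levels, so they are not independent of the change.

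Normal kidney RNA was concentrated in few genes and became more evenly spread after obstruction. The most abundant genes that together held 50% of the length-scaled total numbered 182, 113 and 164 in the normal and 530, 388, 561 and 495 in the UUO libraries. The 100 most abundant genes of each library held 44.3%, 49% and 45.5% of it in normal and 32.4%, 36.7%, 31.3% and 33.4% in UUO kidney. The 13 protein-coding genes of mitochondrial DNA held 19.7%, 21.2% and 21.3% of that total in normal and 10.2%, 13%, 8.57% and 11% in UUO kidney. Each of these measures separated the groups, with a two-sided exact permutation p of 0.0571, the smallest that 3 against 4 libraries can give. Of the 20 most abundant genes of normal kidney 11 were also among the 20 of UUO kidney. Those that left included Miox (5712 to 784) and Klk1 (4678 to 625), in length-scaled level, which are an inositol oxygenase and kallikrein. Those that entered included B2m (1510 to 5943), Cd74 (255 to 4803), Mgp (208 to 4797), Clu (254 to 3768) and Ctsd (771 to 3339), a class I light chain, the class II invariant chain, matrix Gla protein, clusterin and a lysosomal protease. The median log2 ratio of 15183 genes was 0.72 in length-scaled level against 0.04 for the same genes in the fit. Length-scaled rises are thus larger, and falls smaller, than fitted ones. Shares on that scale are read here only against one another, and shares of lists stand beside summed CPM.

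The 4 UUO libraries were not alike. Among the 720 genes that fell at least 4-fold, UUO libraries 1 and 3 were both below libraries 2 and 4 for 508, and both above them for 15. Over all 17926 genes the same split occurred 3751 times downward and 3631 times upward. The median log2 ratio to the normal mean over those 720 genes was -2.95 and -2.87 in libraries 1 and 3 and -2.23 and -2.20 in libraries 2 and 4. Among the 1703 genes that rose at least 4-fold, libraries 1 and 3 were both above libraries 2 and 4 for 574 and both below them for 195. The medians of these genes were 2.67, 2.48, 2.60 and 2.49 in libraries 1 to 4. This pairing of libraries was noticed in the data, and no label accounts for it. UUO library 1 also stood apart in genes of the urinary tract lining and UUO library 2 in genes of the major histocompatibility complex, with the values given beside those genes.

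Genes of the glomerular filter changed in both directions. Of 18 podocyte genes 6 rose (33.3%) and 8 fell (44.4%), against 31.3% and 29.8% of all genes. The share that rose was thus near that of any gene. Nphs1, which encodes nephrin of the slit diaphragm, fell from 42.6, 32.1 and 25.7 to 22.1, 18.8, 23.3 and 19.9 CPM (log2 -0.67 ± 0.15, adjusted p = 0.0013). Synpo, an actin-bundling protein of the foot processes, rose from 71.3, 73.1 and 63.5 to 151, 105, 125 and 110 CPM (log2 0.83 ± 0.12, adjusted p = 4.61e-05). The groups did not overlap for either gene, and they did not for 60.8% of all genes tested. Of 10 mesangial and parietal genes 7 rose and 1 fell, against 31.3% and 29.8% of all genes. Gata3 and Itga8 had no call. Of those that rose, Pdgfrb, Akap12 and Ncam1 are also on lists of stroma or injured tubule, so the count is not particular to the glomerulus. Pdgfrb, the growth factor receptor of mesangial cells and pericytes, rose from 42, 74.4 and 90.2 to 269, 240, 266 and 229 CPM (log2 1.87 ± 0.25, adjusted p = 1.51e-05). Cldn1, a claudin of the parietal epithelium, rose from 37.6, 44.1 and 34.2 to 203, 135, 190 and 202 CPM (log2 2.24 ± 0.20, adjusted p = 3.92e-07). The angiotensin receptor gene Agtr1a was the 1 that fell (log2 -0.69 ± 0.18, adjusted p = 0.00372).

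In the juxtaglomerular apparatus, which senses salt and releases renin, 2 of 7 genes rose and 2 fell, shares near those of all genes (31.3% and 29.8%). Ren1, the renin gene, was at 38.9, 79.9 and 55 against 144, 32.2, 94.9 and 88.5 CPM (log2 0.64 ± 0.38, adjusted p = 0.159) and did not pass. Its groups overlapped through UUO library 2, without which it passed (log2 0.93, adjusted p = 0.0096). Nos1, a marker of the macula densa, fell from 2.42, 2.29 and 1.36 to 0.898, 0.774, 0.53 and 1.03 CPM (log2 -1.32 ± 0.38, adjusted p = 0.00845), as did the prostaglandin receptor gene Ptger3 (log2 -2.24 ± 0.22, adjusted p = 1.07e-06). Ptgs2, a prostaglandin synthase that the macula densa and many other cells make, rose from 0.838, 0.279 and 0.896 to 2.8, 2.79, 3.54 and 2.05 CPM (log2 2.02 ± 0.49, adjusted p = 0.0026). Akr1b7, an aldo-keto reductase of renin cells, rose (log2 1.63 ± 0.41, adjusted p = 0.00344).

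The proximal tubule lists had the lowest medians along the nephron. All 16 genes of the convoluted part fell, each beyond 2-fold, with a median log2 change of -2.84; over all genes tested 7.94% fell that far. Of 14 genes of the straight part 13 fell, 9 of them beyond 2-fold, with a median of -2.47. The convoluted list held 1.07 ± 0.239% (mean ± SD, n = 3) of the length-scaled total in normal and 0.177 ± 0.0748% (n = 4) in UUO kidney. The straight list held 1.53 ± 0.219% and 0.385 ± 0.187%. Summed levels of the convoluted list ran from 19832 to 26426 CPM in normal and from 1856 to 4394 CPM in UUO libraries. For the straight list they ran from 14962 to 22876 CPM and from 2029 to 5208 CPM.

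Within the proximal tubule the transporters differed in how much was left. Slc22a8, an organic anion transporter that takes drugs up from blood, fell from 1146, 946 and 970 to 23.9, 71.7, 22.3 and 73.5 CPM (log2 -4.42 ± 0.45, adjusted p = 1.49e-06). Slc22a6, which does the same work, fell from 775, 644 and 662 to 30.4, 55.1, 35.7 and 102 CPM (log2 -3.64 ± 0.45, adjusted p = 8.31e-06). Slc6a19, which reabsorbs neutral amino acids, fell from 474, 248 and 493 to 11.2, 29.1, 19 and 41.2 CPM (log2 -4.01 ± 0.42, adjusted p = 1.86e-06). For each of these UUO libraries 1 and 3 were the lowest. Lrp2, which encodes the endocytic receptor megalin, fell from 6729, 5985 and 6611 to 466, 901, 460 and 1188 CPM (log2 -3.10 ± 0.29, adjusted p = 5.78e-07). Its partner Cubn fell from 1311, 778 and 1101 to 124, 220, 140 and 246 CPM (log2 -2.54 ± 0.25, adjusted p = 8.7e-07). Slc5a2, the glucose cotransporter of the early segment, kept more, falling from 373, 313 and 361 to 78.3, 86.6, 79.5 and 126 CPM (log2 -1.91 ± 0.17, adjusted p = 5.09e-07). Its interval, -2.29 to -1.54, did not overlap that of Slc22a8, -5.39 to -3.44. In the straight part the organic anion transporter Slc22a7 fell from 504, 959 and 520 to 13.9, 73.3, 26.3 and 41.9 CPM (log2 -4.09 ± 0.47, adjusted p = 4.04e-06). Slc5a1, the late glucose cotransporter, fell from 147, 162 and 142 to 43.5, 79.4, 52.6 and 94.4 CPM (log2 -1.16 ± 0.21, adjusted p = 0.000322), with an interval of -1.62 to -0.70 against -5.09 to -3.08 for Slc22a7.

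**Figure D2:**
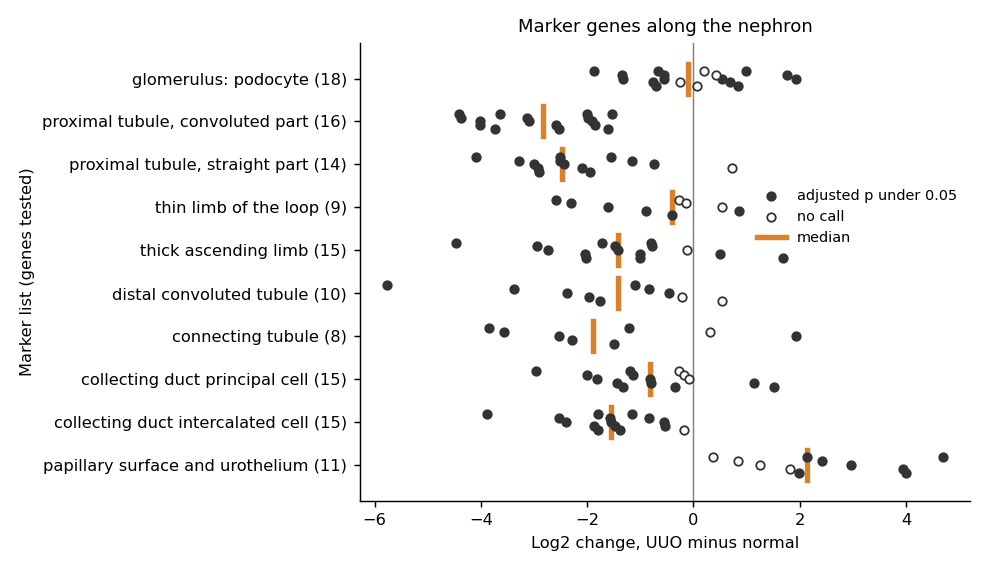
Log2 change of each tested gene (1 point a gene) in marker lists ordered along the nephron from podocyte to collecting duct, with the urinary tract lining last. Filled points passed an adjusted p under 0.05, open points did not, and the bar marks each list's median. The convoluted proximal list has its highest value at -1.54, and the lining lies wholly above 0.

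In the thin limb of the loop of Henle, which concentrates urine, 5 of 9 genes fell and 1 rose, against 29.8% and 31.3% of all genes. The other 3 had no call, and the median log2 change of the list was -0.41. The 1 that rose was the repressor gene Bcl6 (log2 0.86 ± 0.16, adjusted p = 0.000332). Aqp1, the water channel that the thin limb shares with the proximal tubule, fell from 1544, 1474 and 1328 to 116, 512, 159 and 394 CPM (log2 -2.30 ± 0.38, adjusted p = 0.000114), with UUO libraries 1 and 3 below 2 and 4. In the thick ascending limb 12 of 15 genes fell and 2 rose, with log2 changes from -4.46 to 1.69. Slc12a1, its sodium entry step, fell from 2944, 2162 and 2945 to 203, 576, 264 and 579 CPM (log2 -2.73 ± 0.34, adjusted p = 8.97e-06). The potassium channel Kcnj1 fell from 514, 521 and 497 to 117, 186, 122 and 193 CPM (log2 -1.72 ± 0.19, adjusted p = 2.52e-06). Umod, the gene of the main protein of normal urine, fell from 4127, 5758 and 5032 to 1167, 2422, 1502 and 2055 CPM (log2 -1.48 ± 0.24, adjusted p = 0.000103). The calcium-sensing receptor Casr fell (log2 -2.02 ± 0.20, adjusted p = 1.12e-06). Cldn14, a claudin that closes the calcium path between cells and that this receptor is known to raise, rose from 0.705, 0.615 and 0.74 to 2.37, 2.46, 2.48 and 1.62 CPM (log2 1.69 ± 0.32, adjusted p = 0.000382). Kctd1 was the other that rose (log2 0.50 ± 0.13, adjusted p = 0.00429).

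In the distal convoluted tubule genes of salt entry and of its regulators fell alike, with 8 of 10 genes lower and none higher. Slc12a3, the thiazide-sensitive cotransporter, fell from 1154, 1147 and 918 to 232, 366, 202 and 307 CPM (log2 -1.96 ± 0.23, adjusted p = 5.56e-06). Wnk4, a kinase that controls it, fell from 405, 365 and 412 to 89.8, 144, 112 and 121 CPM (log2 -1.75 ± 0.14, adjusted p = 1.95e-07). Klhl3, which targets that kinase for degradation, fell from 38.2, 31.6 and 33.3 to 6.86, 8.11, 5.55 and 5.77 CPM (log2 -2.38 ± 0.21, adjusted p = 4.36e-07). The monocarboxylate transporter Slc16a7 fell from 205, 178 and 217 to 17.7, 24.6, 11.1 and 23.5 CPM (log2 -3.38 ± 0.23, adjusted p = 5.44e-08).

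The connecting tubule held an exception in calcium transport. Of its 8 genes 6 fell, yet Trpv5, the channel through which calcium enters its cells, rose from 28.3, 25.8 and 32.8 to 103, 143, 59.2 and 135 CPM (log2 1.93 ± 0.32, adjusted p = 0.000129). S100g, a protein that ferries calcium across the same cells, fell from 395, 444 and 325 to 66.4, 65.5, 48.7 and 87.5 CPM (log2 -2.53 ± 0.23, adjusted p = 5.36e-07). Slc8a1, the sodium-calcium exchanger of their basolateral side, fell from 70.6, 54.8 and 84.7 to 28.3, 24.6, 17.4 and 28.7 CPM (log2 -1.50 ± 0.33, adjusted p = 0.00119). The groups did not overlap for any of these calcium genes, as was so for 60.8% of all genes tested. Kl, which encodes klotho, the co-receptor of a phosphate-wasting hormone, fell from 835, 778 and 806 to 143, 173, 117 and 228 CPM (log2 -2.28 ± 0.18, adjusted p = 1.52e-07). Cyp27b1, which activates vitamin D, the hormone that drives this transport, rose from 3.66, 5.81 and 4.32 to 36.5, 22.9, 42.8 and 34.2 CPM (log2 2.90 ± 0.27, adjusted p = 5.69e-07).

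In the collecting duct 10 of 15 principal cell genes fell and 2 rose. Aqp2, the vasopressin-controlled water channel, fell from 297, 132 and 265 to 42.7, 42.5, 54.2 and 125 CPM (log2 -1.81 ± 0.48, adjusted p = 0.00449), and UUO library 4 came close to normal library 2. Aqp4, the water channel of the basolateral side, fell from 348, 391 and 302 to 17.2, 67.9, 26.4 and 65.4 CPM (log2 -2.97 ± 0.46, adjusted p = 7.26e-05). The sodium channel subunit Scnn1a fell from 284, 311 and 257 to 89.9, 139, 78.5 and 115 CPM (log2 -1.43 ± 0.16, adjusted p = 3.31e-06). St6gal1, a sialyltransferase, rose from 26.2, 21.7 and 26.2 to 74.5, 69.8, 76.3 and 60.9 CPM (log2 1.51 ± 0.12, adjusted p = 1.29e-07). Avpr2, the vasopressin receptor, was the other that rose, at a low level (log2 1.14 ± 0.36, adjusted p = 0.0124), and its call ended without normal library 3 (log2 0.96, adjusted p = 0.0676).

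Intercalated cells, which secrete acid or base, had 14 of 15 genes lower and none higher. Their ammonia channel Rhbg fell from 17.4, 16 and 15.6 to 2.59, 2.83, 2.79 and 3.08 CPM (log2 -2.53 ± 0.15, adjusted p = 2.46e-08). The anion exchanger Slc26a4 fell from 97.3, 89 and 69.6 to 26.9, 26.9, 18.1 and 27.1 CPM (log2 -1.79 ± 0.19, adjusted p = 1.74e-06). Foxi1, the transcription factor on which the cell type depends, fell from 68.5, 54.4 and 47.3 to 31.1, 34, 30.8 and 30.6 CPM (log2 -0.84 ± 0.11, adjusted p = 1.04e-05). The interval of Foxi1, -1.07 to -0.61, did not overlap those of Rhbg, -2.87 to -2.20, or Slc26a4, -2.19 to -1.39.

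The lining of the papilla and urinary tract had 7 of 11 genes higher and none lower, and its levels differed between libraries. Krt5, a basal keratin, rose from 1.15, 0.335 and 2.34 to 61.8, 2.69, 14.9 and 2.61 CPM (log2 3.94 ± 1.09, adjusted p = 0.00628). Upk1b, a protein of the lining's apical plaques, rose from 2.82, 0.279 and 6.19 to 73.7, 6.77, 14 and 5.98 CPM (log2 2.97 ± 0.99, adjusted p = 0.0182). UUO library 1 was the highest for both and library 3 the next. Without library 1 Krt5 was at log2 2.35, adjusted p = 0.0212, and the call of Upk1b ended (log2 1.49, adjusted p = 0.107); it also ended without normal library 1 (log2 2.89, adjusted p = 0.0585) or 2 (log2 2.47, adjusted p = 0.0611), and without normal library 3 the changes were log2 4.72 for Krt5 and log2 3.95 for Upk1b. With limma-voom in place of edgeR neither gene passed (adjusted p = 0.124 for Krt5 and 0.0894 for Upk1b). Without normal library 1 or 2 or UUO library 1 only 3 of the 11 genes passed. The list's summed level ran from 7.88 to 70.5 CPM in normal and from 114 to 617 CPM in UUO libraries. How much of the collecting system each kidney sample held was not tested.

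In a list of transcription factors and nuclear receptors of proximal and other tubule cells 20 of 21 genes fell, against 29.8% of all genes. The list also holds coactivators and the scaffold gene Pdzk1, which binds no DNA. Hnf4a, a nuclear receptor of tubule and liver, fell from 1064, 1029 and 922 to 229, 294, 165 and 334 CPM (log2 -1.98 ± 0.20, adjusted p = 1.31e-06). The thyroid hormone receptor Thrb fell (log2 -1.25 ± 0.12, adjusted p = 8.27e-07), as did the vitamin D receptor Vdr (log2 -1.33 ± 0.13, adjusted p = 9.63e-07). Hoxd3 was the 1 that rose (log2 0.66 ± 0.21, adjusted p = 0.0135), and its call ended without normal library 3 (log2 0.54, adjusted p = 0.067).

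Genes of the embryonic kidney split, with 9 of 21 higher and 7 lower, against 31.3% and 29.8% of all genes. Sox9, which marks injured tubule cells that enter repair, rose from 1.72, 0.95 and 0.545 to 14.4, 11.6, 18.5 and 15.1 CPM (log2 3.80 ± 0.35, adjusted p = 5.96e-07). Sox4, another factor of that family, rose from 10.9, 10.5 and 11.8 to 49.2, 40.1, 47.1 and 48.9 CPM (log2 2.06 ± 0.25, adjusted p = 6.28e-06). Pax8, which stays on in adult tubules, rose (log2 0.65 ± 0.10, adjusted p = 4.21e-05). Six2, the factor of nephron progenitors, was too low to test.

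Promoters of genes that changed were searched for short runs of letters bound by known factors, from 250 bases before to 50 after the start that RefSeq gives on build GRCm38.p6, with N for any base; these shares carry no test. Of the 17926 tested genes 12669 had such a promoter, among them 497 genes that fell and 1215 that rose at least 4-fold. The letters CAAAGTCCA, bound by the nuclear receptor HNF4, were in 1.61% of falls, 0.988% of rises and 0.45% of all, which is 8, 12 and 57 promoters. With 2-fold in place of 4-fold they were in 0.75% of falls and 0.575% of rises. Aadat, an aminotransferase of kynurenine breakdown, and Pdzk1, a scaffold of brush border transporters, were among the 8. Aadat fell from 3054, 4025 and 3159 to 138, 607, 167 and 485 CPM (log2 -3.29 ± 0.44, adjusted p = 1.91e-05). Its promoter is shown up to the start site because it is the most changed of the named falling genes with these letters. It lies on the plus strand at chr8:60505874-60506123, and the match, in capitals and on the opposite strand, begins 72 bases before the start.

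Aadat: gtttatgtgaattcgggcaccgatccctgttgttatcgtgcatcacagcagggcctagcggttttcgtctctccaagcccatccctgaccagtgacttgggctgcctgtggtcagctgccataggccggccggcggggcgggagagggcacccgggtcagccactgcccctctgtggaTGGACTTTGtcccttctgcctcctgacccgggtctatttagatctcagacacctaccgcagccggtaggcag

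Promoters of genes that rose held the letters of AP-1 and of NF-kappaB more often than all promoters did. TGANTCA, of AP-1, which is formed by Fos and Jun factors, was in 9.88% of promoters that rose at least 4-fold, in 6.24% of those that fell and in 5.38% of all. GGGANTTTC, of NF-kappaB, a factor of inflammation, was in 2.63%, 1.41% and 1.07%. At 2-fold the AP-1 shares were 8.18% of rises and 7.06% of falls, and those of NF-kappaB 2.34% and 0.812%. The TATA box letters TATAAA were in 15.1% of rises and 15.9% of falls against 7.99% of all. TEAD letters GGAATG were in 14% of rises, 17.3% of falls and 12.5% of all, and GAS letters TTCNNNGAA in 8.48%, 7.85% and 6.95%. The CCAAT box, CCAAT, was in 35.5%, 38% and 37.7% in the same order, and the E2F letters TTTCCCGC in 1.56%, 0.604% and 1.90%. The cyclic AMP element TGACGTCA was in 2.06%, 0.402% and 2.90%, and the cell cycle element TTTGAA in 17.1%, 17.3% and 12.4%. Both strands were searched for each, matches of different motifs were allowed to overlap, and a match is a run of letters, not a measured binding site.

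The promoters of the most changed named genes with these letters are shown up to the start site. Cxcl2, a chemokine that draws neutrophils, lies on the plus strand at chr5:90903649-90903898, and its NF-kappaB match begins 97 bases before the start. Il1rn, which encodes the antagonist of the interleukin receptor, lies on the plus strand at chr2:24336610-24336859, and its AP-1 match begins 141 bases before the start. Capitals mark the matches.

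Cxcl2: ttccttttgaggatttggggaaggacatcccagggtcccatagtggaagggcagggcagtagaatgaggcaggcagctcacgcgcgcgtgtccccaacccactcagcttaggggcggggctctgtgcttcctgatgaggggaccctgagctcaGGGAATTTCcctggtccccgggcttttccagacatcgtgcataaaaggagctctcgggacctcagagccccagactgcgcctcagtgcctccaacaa

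Il1rn: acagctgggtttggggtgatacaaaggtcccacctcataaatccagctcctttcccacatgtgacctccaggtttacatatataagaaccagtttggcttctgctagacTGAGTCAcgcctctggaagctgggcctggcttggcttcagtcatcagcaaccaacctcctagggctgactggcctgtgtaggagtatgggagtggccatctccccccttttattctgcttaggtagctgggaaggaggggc

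Both genes were close to absent without obstruction. Cxcl2 rose from 0.0882, 0 and 0.0779 to 14.8, 7.24, 12.4 and 12 CPM (log2 7.48 ± 0.53, adjusted p = 6.39e-08), from 4 counts in the 3 normal libraries together. Il1rn rose from 0.0882, 0 and 0.312 to 24.2, 13.5, 14 and 30.4 CPM (log2 7.06 ± 0.56, adjusted p = 1.58e-07), and without normal library 3 its change was log2 8.56. Genes for the factors themselves rose as well. Fos rose from 1.1, 1.17 and 0.857 to 8.91, 7.91, 10.5 and 11.2 CPM (log2 3.21 ± 0.23, adjusted p = 7.61e-08). Fosl1, another partner of AP-1, rose from 0.838, 0.559 and 0.779 to 3.23, 2.83, 3.32 and 4.23 CPM (log2 2.21 ± 0.31, adjusted p = 2.99e-05). Nfkb2, a subunit of NF-kappaB, rose from 24.6, 24.6 and 23.4 to 97.9, 76.6, 104 and 91 CPM (log2 1.93 ± 0.10, adjusted p = 8.43e-09). Relb, the subunit it pairs with, rose from 6.48, 9.22 and 8.37 to 62.2, 44.1, 66.7 and 55.8 CPM (log2 2.84 ± 0.15, adjusted p = 1.2e-08). Of 31 stress and immediate early transcription factors 24 rose and none fell. Runx1, a factor of blood formation, rose from 2.07, 2.35 and 3.43 to 47.2, 35.4, 45.8 and 46.2 CPM (log2 4.04 ± 0.24, adjusted p = 1.74e-08).

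Genes of mitochondrial fuel use fell together. All 19 genes tested of the tricarboxylic acid cycle fell, 16 beyond 2-fold, with log2 changes from -1.87 to -0.80. Cs, citrate synthase, fell from 393, 390 and 404 to 219, 249, 204 and 238 CPM (log2 -0.80 ± 0.08, adjusted p = 1.97e-06). Sdhb, of succinate dehydrogenase, fell from 512, 635 and 532 to 160, 192, 145 and 188 CPM (log2 -1.71 ± 0.12, adjusted p = 7.88e-08). Of 22 genes of fatty acid and ketone handling 19 fell. Cpt1a, the gate of fatty acids into mitochondria, fell from 466, 398 and 425 to 181, 229, 195 and 199 CPM (log2 -1.10 ± 0.13, adjusted p = 4.34e-06). Acaa2, the last step of their breakdown, fell from 309, 301 and 286 to 54.9, 60.3, 60.1 and 66.5 CPM (log2 -2.30 ± 0.12, adjusted p = 9.18e-09). Plin2, which coats lipid droplets, was the 1 that rose, from 31.8, 53.1 and 32.1 to 95.2, 81.2, 105 and 81.3 CPM (log2 1.22 ± 0.24, adjusted p = 0.000565).

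Genes of sugar metabolism changed by isoform. In gluconeogenesis, which the proximal tubule carries out, 10 of 11 genes fell. Pck1, the cytosolic phosphoenolpyruvate carboxykinase, fell from 5462, 3499 and 4182 to 82.8, 231, 130 and 402 CPM (log2 -4.37 ± 0.57, adjusted p = 1.42e-05). Fbp1, a fructose bisphosphatase, fell from 1244, 1278 and 1122 to 83.2, 140, 89 and 213 CPM (log2 -3.21 ± 0.27, adjusted p = 2.45e-07). G6pc, which encodes the last enzyme of glucose release, fell from 590, 567 and 516 to 13.9, 31.6, 16.4 and 45.8 CPM (log2 -4.37 ± 0.35, adjusted p = 1.72e-07). The mitochondrial form Pck2 rose from 22.1, 22.1 and 21 to 38.4, 35, 33.5 and 26.2 CPM (log2 0.61 ± 0.11, adjusted p = 0.000304). Among glycolytic and pentose phosphate genes 18 of 27 fell and 6 rose. Hk1, the hexokinase of most tissues, fell from 276, 248 and 290 to 125, 207, 142 and 164 CPM (log2 -0.77 ± 0.14, adjusted p = 0.000257). Hk2, a form of muscle and growing cells, rose from 0.749, 1.01 and 0.974 to 14.9, 13.2, 12 and 18 CPM (log2 3.99 ± 0.30, adjusted p = 9.8e-08). Pgam1, a mutase of lower glycolysis, fell (log2 -1.52 ± 0.12, adjusted p = 1.36e-07). Eno2, an enolase best known from neurons, rose from 2.82, 3.13 and 3.66 to 22.4, 17.9, 25.4 and 18.7 CPM (log2 2.71 ± 0.18, adjusted p = 4.48e-08). The lactate exporter Slc16a3 rose (log2 2.15 ± 0.28, adjusted p = 1.28e-05). In length-scaled level the rising forms stayed below the falling ones, with Hk2 at 9.32 against 71.3 for Hk1 in UUO kidney, and Pck2 at 16.4 against 233 for Pck1.

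**Figure D3:**
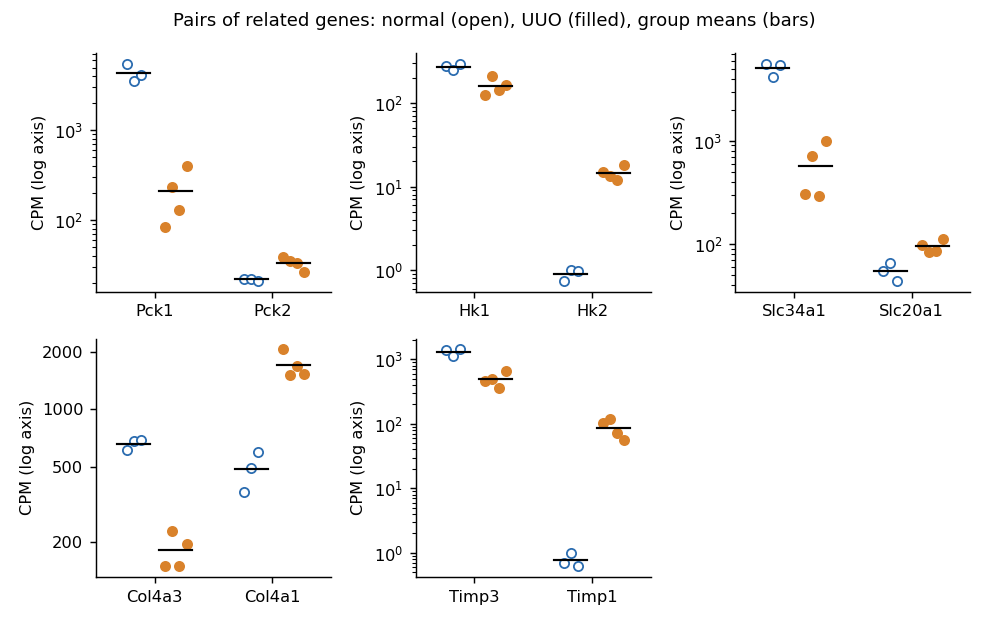
CPM in each wild-type library (log axis; open circles normal, filled circles UUO) for pairs of related genes of which 1 fell and 1 rose: Pck1 and Pck2, Hk1 and Hk2, Slc34a1 and Slc20a1, Col4a3 and Col4a1, and Timp3 and Timp1. In each pair the left gene is lower and the right gene higher in all 4 UUO libraries than in any normal library. The groups did not overlap for 60.8% of all genes tested.

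Genes for the synthesis of small molecules in the tubule fell more often than they rose. Of 23 genes of amino acid and creatine synthesis 17 fell and 2 rose. Ass1, of the arginine synthesis by which the kidney supplies the body, fell from 856, 636 and 759 to 46, 73.7, 40.4 and 110 CPM (log2 -3.47 ± 0.28, adjusted p = 1.99e-07). Shmt2, of mitochondrial serine and folate metabolism, fell (log2 -2.14 ± 0.12, adjusted p = 1.39e-08). Asns, asparagine synthetase, rose from 4.28, 8.83 and 4.21 to 18.2, 20.5, 15.6 and 18.9 CPM (log2 1.68 ± 0.23, adjusted p = 2.58e-05). Pycr1, of proline synthesis, rose from 0.705, 0.95 and 0.662 to 4.81, 2.83, 3.57 and 2.01 CPM (log2 2.11 ± 0.36, adjusted p = 0.000145).

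A list of NAD genes covered the pathway from tryptophan to this cofactor, the salvage of NAD and some enzymes that use it. Of its 19 genes tested 12 fell and 2 rose. Kmo, a hydroxylase of the middle part of the tryptophan pathway, fell from 244, 190 and 193 to 18.5, 33.7, 16.7 and 33.6 CPM (log2 -3.03 ± 0.22, adjusted p = 7.88e-08). Kynu, of the following step, fell (log2 -2.63 ± 0.19, adjusted p = 7.51e-08). Afmid, of an early step, fell (log2 -2.60 ± 0.20, adjusted p = 1.37e-07). Nnmt, which methylates nicotinamide, rose from 0.264, 0.671 and 0.623 to 5.24, 4.27, 5.34 and 4.02 CPM (log2 3.18 ± 0.39, adjusted p = 7.62e-06). Cd38, which breaks NAD down on leukocytes and other cells, was the other that rose (log2 0.78 ± 0.18, adjusted p = 0.00194).

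Of 16 targets of the hypoxia-inducible factors 9 fell (56.2%) and 4 rose (25.0%), against 29.8% and 31.3% of all genes. Vegfa, the vascular growth factor made by podocytes and tubules, fell from 403, 364 and 368 to 126, 163, 146 and 163 CPM (log2 -1.34 ± 0.10, adjusted p = 9.32e-08). Bnip3, which acts in the removal of mitochondria, fell from 118, 123 and 105 to 41, 43.6, 43.5 and 50.8 CPM (log2 -1.36 ± 0.10, adjusted p = 6.42e-08). Hmox1, heme oxygenase, rose from 21.2, 28 and 23.4 to 55.7, 48.3, 62.7 and 73.6 CPM (log2 1.31 ± 0.15, adjusted p = 4.14e-06). Hilpda, of lipid droplets, rose from 1.63, 1.96 and 2.14 to 6.18, 4.54, 6.75 and 4.92 CPM (log2 1.55 ± 0.21, adjusted p = 2.49e-05).

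Among the sodium pump and cotransporters 2 of 19 genes rose and 13 fell. Slc34a1, the main phosphate cotransporter of the proximal tubule, fell from 5543, 4157 and 5451 to 301, 708, 291 and 997 CPM (log2 -3.14 ± 0.39, adjusted p = 8.34e-06). Slc34a3, another one there, fell from 90.5, 76.6 and 96.4 to 3.84, 9.73, 4.03 and 12.8 CPM (log2 -3.54 ± 0.34, adjusted p = 8.61e-07). Slc20a1, a phosphate transporter of many cells, rose from 54.2, 65.2 and 43.8 to 97.7, 83.5, 85.9 and 111 CPM (log2 0.80 ± 0.13, adjusted p = 0.00014). Drug transporters and conjugating enzymes had 20 of 24 genes lower and none higher. Abcg2, an efflux pump of the brush border, fell from 484, 480 and 475 to 136, 151, 129 and 219 CPM (log2 -1.60 ± 0.16, adjusted p = 1.03e-06).

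Genes of the salt and urea gradient of the medulla were uneven even in normal kidney. Slc14a2, the urea transporter of the inner medulla, was at 93.1, 10.1 and 73.6 against 13.1, 93.9, 70.5 and 36.6 CPM (log2 -0.14 ± 0.77, adjusted p = 0.885), and its groups overlapped. Slc6a12, which imports betaine as an osmolyte, fell from 13, 3.63 and 17.4 to 0.646, 2.96, 1.34 and 2.39 CPM (log2 -2.63 ± 0.51, adjusted p = 0.000459). Nfat5, the factor that responds to high salt, rose from 251, 177 and 287 to 335, 306, 367 and 349 CPM (log2 0.51 ± 0.14, adjusted p = 0.00586). Normal library 2 had the least of all 3 genes among normal libraries, and how much medulla each sample held was not tested. Of the vasoactive genes, Edn1, the constrictor endothelin, rose from 2.16, 2.12 and 3.39 to 79.8, 48, 42 and 81.9 CPM (log2 4.60 ± 0.30, adjusted p = 3.61e-08). Its receptor Ednra rose from 2.95, 3.52 and 4.17 to 23.3, 15.1, 19.8 and 19.9 CPM (log2 2.46 ± 0.19, adjusted p = 1.44e-07). Ace, made by brush border and endothelium, fell from 447, 627 and 549 to 55.7, 129, 48 and 110 CPM (log2 -2.66 ± 0.30, adjusted p = 3.98e-06).

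Markers of injured tubule rose in 25 of 26 cases, 20 beyond 2-fold. The list was drawn from what is known of kidney injury, so that its direction is no independent evidence. Lcn2, a binder of iron carriers that is released into urine in injury, rose from 5.86, 8.1 and 5.84 to 471, 760, 816 and 469 CPM (log2 6.58 ± 0.43, adjusted p = 3.7e-08). Cp, ceruloplasmin, rose from 70.9, 50.7 and 38.2 to 866, 691, 803 and 575 CPM (log2 3.78 ± 0.24, adjusted p = 3.09e-08). Dcdc2a, which marks tubule cells that fail to recover, rose from 27.5, 37.9 and 32.6 to 339, 362, 294 and 245 CPM (log2 3.25 ± 0.18, adjusted p = 1.41e-08). Havcr1, a receptor for dying cells on injured proximal tubule, rose from 145, 11.6 and 4.13 to 370, 360, 251 and 287 CPM (log2 2.56 ± 0.81, adjusted p = 0.0136). Normal library 1 had over 10 times the Havcr1 of the other 2 normal libraries, and without it the change was log2 5.35. A fit of the 7 wild-type libraries alone ended its call (log2 2.56, adjusted p = 0.0579). The list held 0.379 ± 0.0214% of the length-scaled total in normal and 6.26 ± 0.716% in UUO kidney, most of it Spp1 (osteopontin) with length-scaled levels of 2915 and 53465. Its summed level ran from 3297 to 3683 CPM in normal and from 27950 to 37108 CPM in UUO libraries.

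**Figure D4:**
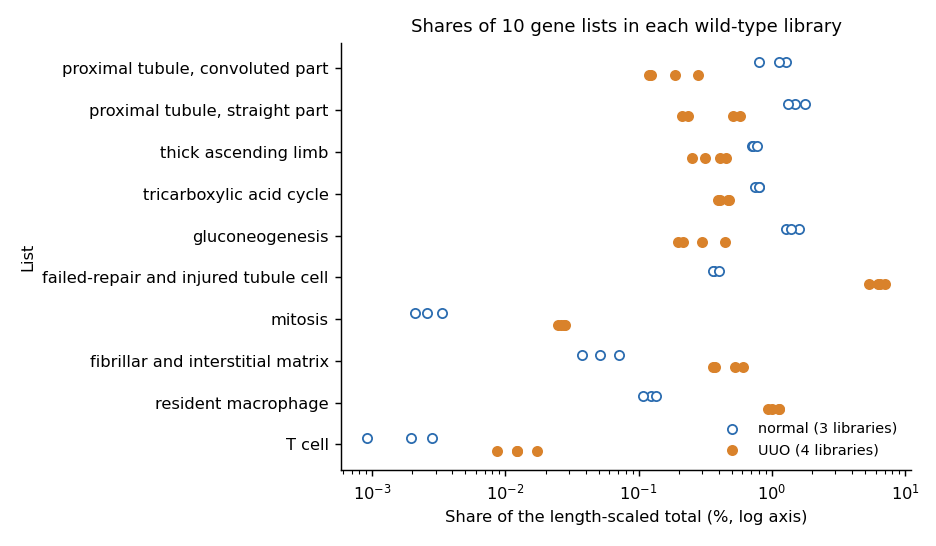
Share of the length-scaled total (percent, log axis) held by 10 lists in each wild-type library, with normal libraries as open and UUO libraries as filled circles. The convoluted proximal tubule goes down from 1.07 ± 0.239% to 0.177 ± 0.0748% (mean ± SD) and the injured tubule list up from 0.379 ± 0.0214% to 6.26 ± 0.716%. On this scale rises are larger and falls smaller than in the fit.

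Cell division genes rose as a block. All 22 mitosis genes rose, each beyond 2-fold, against 12.1% of all genes. Of 22 genes of replication and the G1/S step 20 rose, 8 beyond 2-fold. Ccnb1, the mitotic cyclin, rose from 0.485, 0.447 and 0.428 to 5.06, 4.95, 4.95 and 4.79 CPM (log2 3.43 ± 0.24, adjusted p = 5.71e-08). Tpx2, of the spindle, rose from 2.16, 2.46 and 2.38 to 18.4, 17.4, 19.7 and 18.1 CPM (log2 2.98 ± 0.14, adjusted p = 5.45e-09). The 4 UUO libraries lay close together for both. Mcm5, of the replication helicase, rose from 5.69, 5.76 and 8.3 to 32.5, 27.2, 23.7 and 25.3 CPM (log2 2.04 ± 0.19, adjusted p = 7.77e-07). Ccnd1, the cyclin of early G1, was the 1 that fell, from 220, 189 and 202 to 63.5, 99.8, 52.9 and 96.9 CPM (log2 -1.38 ± 0.18, adjusted p = 1.27e-05). Genes that block division rose too: Cdkn1a rose from 10.3, 21.9 and 18.4 to 56.4, 44, 54.4 and 56.1 CPM (log2 1.65 ± 0.25, adjusted p = 5.73e-05). Cdkn2b, an inhibitor of the partner of Ccnd1, rose from 5.25, 1.51 and 5.06 to 11.3, 10.9, 12.3 and 7.22 CPM (log2 1.39 ± 0.38, adjusted p = 0.00594). Which cells divide cannot be read from whole kidney.

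Genes that govern cell death rose more often than they fell. Among apoptosis regulators 13 of 21 rose and 3 fell, against 31.3% and 29.8% of all genes. Pmaip1, which promotes death, rose from 22.5, 16.3 and 11.3 to 65.4, 57.4, 60.4 and 72.1 CPM (log2 1.94 ± 0.18, adjusted p = 7.04e-07). Birc3, which promotes survival, rose from 9.92, 9.45 and 12.3 to 95.7, 77.7, 94 and 94 CPM (log2 3.09 ± 0.16, adjusted p = 9.18e-09). Bcl2 was bounded without a call (log2 0.11 ± 0.11, adjusted p = 0.404). Among genes of inflammatory and regulated necrosis 14 of 20 rose and 3 fell. Casp4, an inflammatory caspase, rose from 1.45, 2.52 and 2.69 to 27, 24.3, 24.4 and 27.8 CPM (log2 3.54 ± 0.29, adjusted p = 2.35e-07). Gsdmd, which forms pores in the membrane, rose from 5.77, 7.27 and 7.52 to 36.8, 28, 36.5 and 33.9 CPM (log2 2.30 ± 0.13, adjusted p = 1.5e-08). Ripk3, a kinase of necroptosis, rose from 1.94, 1.68 and 2.1 to 13.4, 12.3, 13.6 and 11.5 CPM (log2 2.72 ± 0.15, adjusted p = 1.2e-08). Gpx4, which guards membranes against lipid peroxides, fell from 330, 435 and 342 to 166, 189, 177 and 192 CPM (log2 -1.03 ± 0.10, adjusted p = 1.26e-06). Tfrc, which imports iron, fell (log2 -1.71 ± 0.19, adjusted p = 3.14e-06).

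Cytoskeletal genes rose in 25 of 26 cases. Tmsb10, a binder of actin monomers, rose from 22.3, 28.8 and 29 to 330, 244, 357 and 234 CPM (log2 3.45 ± 0.23, adjusted p = 4.55e-08). Tubb2b, a tubulin, rose from 13.9, 13.6 and 18.3 to 94.1, 103, 79.7 and 79 CPM (log2 2.54 ± 0.15, adjusted p = 1.74e-08).

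Genes of scar matrix rose throughout. All 24 genes of fibrillar and interstitial matrix rose, 22 beyond 2-fold, and the list held 0.0535 ± 0.0171% of the length-scaled total in normal and 0.469 ± 0.12% in UUO kidney. Its summed level ran from 961 to 1838 CPM in normal and from 6781 to 10876 CPM in UUO libraries. Col1a1, the main collagen of scars, rose from 19, 35.7 and 54 to 1036, 654, 1085 and 442 CPM (log2 4.47 ± 0.44, adjusted p = 9.48e-07). Col3a1, which is laid down with it, rose from 40.4, 85.3 and 143 to 1767, 1083, 1532 and 1060 CPM (log2 3.92 ± 0.40, adjusted p = 1.54e-06). Col12a1, which decorates collagen fibrils, rose from 13.9, 13.5 and 23.3 to 503, 248, 361 and 211 CPM (log2 4.28 ± 0.33, adjusted p = 1.09e-07). For these 3 genes UUO libraries 1 and 3 were above 2 and 4. Postn, a matricellular protein often used to mark myofibroblasts, rose from 6.04, 4.7 and 6.43 to 85.3, 26.3, 42.6 and 20.6 CPM (log2 2.93 ± 0.71, adjusted p = 0.00268). Smoc2, the gene of the transgene in the other libraries, rose in wild-type kidney from 12.6, 19.7 and 43.3 to 150, 131, 158 and 148 CPM (log2 2.54 ± 0.38, adjusted p = 4.93e-05), or by log2 3.19 without normal library 3.

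Genes for collagen IV chains of the basement membrane changed in opposite directions. Col4a1, of the widespread form, rose from 367, 493 and 598 to 2062, 1522, 1684 and 1540 CPM (log2 1.81 ± 0.17, adjusted p = 6.9e-07). Col4a2, its partner, rose from 256, 346 and 405 to 1366, 1072, 1186 and 1016 CPM (log2 1.79 ± 0.16, adjusted p = 4.96e-07). Col4a3, of the form of mature glomeruli and distal tubules, fell from 613, 682 and 686 to 151, 228, 150 and 196 CPM (log2 -1.87 ± 0.18, adjusted p = 7.4e-07). Col4a4, its partner, fell from 533, 497 and 574 to 186, 249, 197 and 220 CPM (log2 -1.33 ± 0.11, adjusted p = 1.66e-07). The groups did not overlap for any of the 4, as was so for 60.8% of all genes tested. Of 22 basement membrane genes 17 rose and 3 fell, the remaining fall being the laminin chain gene Lama3 (log2 -0.98 ± 0.27, adjusted p = 0.00565).

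Enzymes that crosslink and cleave matrix, with their inhibitors, rose in 22 of 29 cases and fell in 3. Loxl2, a crosslinking oxidase, rose from 6.66, 14.5 and 19.4 to 95.6, 79.1, 80.8 and 72.4 CPM (log2 2.60 ± 0.33, adjusted p = 1.07e-05). Adamts1, a protease, rose from 73.9, 89.4 and 62.1 to 385, 352, 443 and 356 CPM (log2 2.36 ± 0.15, adjusted p = 3.67e-08). Timp1, an inhibitor of matrix proteases, rose from 0.705, 1.01 and 0.623 to 104, 117, 71 and 55.6 CPM (log2 6.83 ± 0.49, adjusted p = 7.42e-08). Timp3, an inhibitor bound to matrix, fell from 1371, 1119 and 1421 to 465, 500, 355 and 650 CPM (log2 -1.41 ± 0.16, adjusted p = 4.89e-06). Plat, the tissue activator of plasminogen, rose (log2 1.76 ± 0.20, adjusted p = 3.17e-06).

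Of 42 growth factor ligands 24 rose (57.1%) and 9 fell (21.4%), against 31.3% and 29.8% of all genes. Log2 changes of the list ran from -4.46 to 5.09. Its summed level was nonetheless lower after obstruction, from 4039 to 4303 CPM in normal and from 1421 to 1849 CPM in UUO libraries. Tgfb1, the central factor of fibrosis, rose from 15.2, 20.8 and 24 to 78, 62.7, 66.9 and 60.7 CPM (log2 1.74 ± 0.16, adjusted p = 4.84e-07). Pdgfb, a mitogen of pericytes, rose from 22.1, 23.2 and 29.1 to 102, 97, 128 and 119 CPM (log2 2.17 ± 0.18, adjusted p = 2.84e-07). Inhbb, an activin chain, rose from 4.1, 5.48 and 3.86 to 23.7, 27.5, 33.2 and 33 CPM (log2 2.72 ± 0.18, adjusted p = 4.77e-08). Fgf1, a growth factor that nephrons make, fell from 392, 414 and 389 to 42.6, 87.9, 68.9 and 104 CPM (log2 -2.39 ± 0.25, adjusted p = 2.03e-06). Fgf9, of the same family, fell from 32.8, 34.2 and 27.4 to 8.98, 10.6, 8.91 and 8.98 CPM (log2 -1.74 ± 0.10, adjusted p = 1.97e-08). Bmp7, a tubule factor known to oppose fibrosis, fell from 69.1, 70.4 and 62.2 to 20.6, 31.3, 20.1 and 23.9 CPM (log2 -1.49 ± 0.16, adjusted p = 1.94e-06). Every normal library was above every UUO library for each of these 3 falling genes, as was so for 29.5% of all genes tested.

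Stromal genes rose, and genes of capillary and glomerular endothelium fell more often than they rose. Of 15 fibroblast genes 12 rose, and of 18 myofibroblast genes 16. Acta2, smooth muscle actin, rose from 39.5, 23 and 42.1 to 317, 236, 261 and 192 CPM (log2 2.85 ± 0.24, adjusted p = 2.38e-07). Nkd2, an inhibitor of Wnt signalling, rose from 1.68, 1.51 and 1.75 to 72.5, 53.8, 58 and 25.2 CPM (log2 4.98 ± 0.37, adjusted p = 9.31e-08). Myh11, of mature smooth muscle, was at 37.3, 21.4 and 25.4 against 68.7, 23.3, 43.5 and 21.1 CPM (log2 0.48 ± 0.38, adjusted p = 0.293), and its groups overlapped. Among capillary and glomerular endothelial genes 9 of 18 fell and 2 rose, against 29.8% and 31.3% of all genes. Pecam1, a junction protein of all endothelium, was bounded at 82.1, 105 and 121 against 104, 92.9, 103 and 112 CPM (log2 0.01 ± 0.12, adjusted p = 0.973). Cdh5, its cadherin, was bounded at 53.1, 52.8 and 76 against 71.7, 65.7, 67.7 and 74 CPM (log2 0.20 ± 0.12, adjusted p = 0.169), though without normal library 3 it passed (log2 0.40, adjusted p = 0.00414). The growth factor receptor Flt1 fell (log2 -0.94 ± 0.14, adjusted p = 4.3e-05), as did Tek (log2 -0.53 ± 0.13, adjusted p = 0.00227). Selp, a selectin that catches leukocytes, rose from 0.176, 0.335 and 0.117 to 1.44, 1.28, 1.34 and 1.8 CPM (log2 2.83 ± 0.39, adjusted p = 2.31e-05).

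Leukocyte genes rose. Of 15 genes of resident macrophages 13 rose and 1 fell. The list held 0.122 ± 0.0136% of the length-scaled total in normal and 1.05 ± 0.097% in UUO kidney. A large part of the UUO share was Cd74, the class II invariant chain, with a length-scaled level of 4803. Cd74 is also on the list of antigen presentation genes. The summed level of the macrophage list ran from 1216 to 1280 CPM in normal and from 4798 to 5625 CPM in UUO libraries. Mrc1, a mannose receptor, rose from 4.67, 5.87 and 5.49 to 139, 70.7, 119 and 97.6 CPM (log2 4.32 ± 0.24, adjusted p = 1.36e-08). Ccr2, the chemokine receptor of incoming monocytes, rose from 3.88, 5.03 and 4.71 to 97.7, 103, 84.5 and 117 CPM (log2 4.47 ± 0.27, adjusted p = 2.31e-08). Ly6c2, a surface marker of monocytes in blood, was at 1.54, 2.18 and 0.818 against 1.4, 1.21, 1.8 and 2.48 CPM (log2 0.20 ± 0.46, adjusted p = 0.725), and its groups overlapped. Trem2, of lipid-laden macrophages, rose from 0.397, 0.503 and 0.195 to 14.8, 6.13, 15.7 and 4.1 CPM (log2 4.83 ± 0.52, adjusted p = 2.27e-06) and was higher in UUO libraries 1 and 3 than in 2 and 4. All 13 dendritic cell genes rose. Xcr1, of the cross-presenting type, rose from 0.309, 0.279 and 0.623 to 6.25, 5.92, 7.11 and 8.33 CPM (log2 4.04 ± 0.34, adjusted p = 2.84e-07). Of 18 T cell genes 17 rose. Lck, a kinase of the T cell receptor, rose from 1.01, 1.68 and 2.38 to 8.58, 15.2, 11.8 and 11.8 CPM (log2 2.80 ± 0.29, adjusted p = 1.77e-06). Cd3e, of that receptor, rose from 0.264, 0.503 and 1.4 to 1.8, 5.02, 3.47 and 3.38 CPM (log2 2.19 ± 0.47, adjusted p = 0.000978), or by log2 3.17 without normal library 3.

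Granulocyte genes were scarce. Of 12 neutrophil genes 6 could be tested and 5 rose. S100a8, the main neutrophil cytosolic gene, rose from 0.0882, 0.224 and 0.117 to 2.23, 1.45, 2.23 and 1.84 CPM (log2 3.77 ± 0.40, adjusted p = 1.84e-06) and stayed low. The granule genes Mpo, Elane, Camp and Ngp and the surface marker Ly6g were too low to test. Csf3r, a growth factor receptor of neutrophils and monocytes, rose from 1.41, 0.727 and 1.21 to 13.7, 13.6, 15.3 and 13.2 CPM (log2 3.62 ± 0.29, adjusted p = 1.61e-07). Siglecf, a lectin of eosinophils and some macrophages, had 0 counts in the 3 normal libraries together and was at 1.08, 1.04, 1.13 and 1.15 CPM in UUO kidney. That is at least 24.3-fold higher than the 3 counts taken as the floor of the normal group. Hdc makes histamine in mast cells and is known from tubules too. It fell from 400, 54.5 and 69.2 to 9.34, 12.7, 7.78 and 10.4 CPM (log2 -4.12 ± 0.71, adjusted p = 0.000185), and without normal library 1, which was the highest, the change was log2 -2.62. The mast cell genes Mcpt4, Cma1 and Cpa3 were too low to test.

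Chemokines and cytokines rose in 36 of 39 cases. Ccl2, which recruits monocytes, rose from 1.28, 0.838 and 0.974 to 65.5, 32, 69 and 38.2 CPM (log2 5.62 ± 0.37, adjusted p = 4.22e-08). Csf1, the growth factor of macrophages, rose from 12.2, 13.9 and 17.5 to 117, 90.5, 106 and 117 CPM (log2 2.89 ± 0.18, adjusted p = 2.91e-08). Cxcl16, made by epithelium and macrophages, rose from 56.7, 51.8 and 68.1 to 241, 206, 283 and 257 CPM (log2 2.07 ± 0.13, adjusted p = 2.49e-08). Il6, a cytokine of inflammation, had 1 count in the 3 normal libraries together and was at 0.898, 0.74, 0.495 and 0.513 CPM in UUO kidney. The 2 that fell were Cxcl12 and Ccl28. Cxcl12, a homing factor of stroma and podocytes, fell from 161, 192 and 289 to 54.2, 80, 110 and 151 CPM (log2 -1.12 ± 0.27, adjusted p = 0.00226). Ccl28, an epithelial chemokine, fell from 89.8, 280 and 16.5 to 20.4, 27, 20.7 and 54.1 CPM (log2 -2.08 ± 0.74, adjusted p = 0.0259). Normal library 2 was the highest for Ccl28, and the call ended without it (log2 -0.80, adjusted p = 0.353) and without UUO library 1, 2 or 3 (adjusted p = 0.0624, 0.0561 and 0.0641).

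Complement and coagulation genes rose in 18 of 28 cases and fell in 6, against 31.3% and 29.8% of all genes. C1s1, a protease of the classical pathway, rose from 8.24, 5.87 and 17.2 to 44.7, 66.3, 74.7 and 81 CPM (log2 2.66 ± 0.31, adjusted p = 4.65e-06). Cfp, properdin, rose from 8.73, 10.7 and 8.02 to 70.8, 53.2, 78.5 and 65 CPM (log2 2.88 ± 0.18, adjusted p = 2.43e-08). Cfi, a soluble inhibitor, rose from 2.95, 2.07 and 4.01 to 86.3, 80.4, 58.4 and 79.1 CPM (log2 4.63 ± 0.25, adjusted p = 1.2e-08). Cd59a, an inhibitor on cell surfaces, fell (log2 -0.62 ± 0.11, adjusted p = 0.000239). Coagulation factor F10 rose from 0.22, 0.224 and 0.195 to 9.01, 9.83, 3.78 and 11.2 CPM (log2 5.28 ± 0.48, adjusted p = 4.92e-07). Proc, the anticoagulant protein C, fell from 141, 147 and 108 to 23.6, 44.2, 25.6 and 39.4 CPM (log2 -1.99 ± 0.20, adjusted p = 1.26e-06).

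Antigen presentation and interferon genes rose in 22 of 25 cases. Psmb8, of the immunoproteasome, rose from 5.51, 9 and 11 to 55.3, 64.5, 55.7 and 77.6 CPM (log2 2.89 ± 0.25, adjusted p = 3.15e-07). H2-Ab1, a class II chain, rose from 50.3, 61.1 and 77.2 to 673, 944, 912 and 1109 CPM (log2 3.85 ± 0.25, adjusted p = 3.66e-08). H2-D1, a class I gene, rose from 293, 506 and 362 to 1143, 223, 684 and 1840 CPM (log2 1.33 ± 0.54, adjusted p = 0.0471), with UUO library 2 below every normal library. That call was close to the threshold and ended without any 1 of 5 libraries, at an adjusted p of 0.142, 0.0561 and 0.111 without normal library 1, 2 or 3 and 0.0842 and 0.173 without UUO library 1 or 4. The class II gene H2-Eb1, singled out after its values were seen, showed the reverse in the same library, at 25.6, 3.07 and 40.3 against 22.9, 699, 36.6 and 26.2 CPM (log2 3.08 ± 1.42, adjusted p = 0.0746). These genes have close copies and differ between mouse strains, so reads can be split between them or lost, and whether strain moved with the libraries was not tested.

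In the lysosome, where antigens are broken down, 16 of 25 genes rose and 7 fell, against 31.3% and 29.8% of all genes. Ctss, the protease of antigen-presenting cells, rose from 7.71, 10.6 and 13.7 to 235, 198, 222 and 280 CPM (log2 4.45 ± 0.25, adjusted p = 1.41e-08). Lamp1, of lysosomes in all cells, fell from 1496, 1595 and 1523 to 900, 1020, 810 and 1050 CPM (log2 -0.70 ± 0.10, adjusted p = 4.92e-05).

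Genes of tissue that could be carried over with a kidney stayed low. The summed level of fat, adrenal and muscle genes ran from 14.6 to 25 CPM in normal and from 4.77 to 8.44 CPM in UUO libraries. Adipoq, of fat, was at 0, 0 and 0.039 against 1.65, 0.0337, 0.177 and 0 CPM, highest in UUO library 1. Sox10, of Schwann cells, was at 0.309, 0.447 and 0.39 against 0.503, 0.135, 0.389 and 0.214 CPM (log2 -0.28 ± 0.57, adjusted p = 0.688).

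Genes commonly used to scale quantitative PCR were tested as a list of their own. Of 22 reference genes 8 rose, 11 fell and 6 were bounded within 1.5-fold, against 31.3%, 29.8% and 27.5% of all genes. The bounded share of these genes was thus near that of any gene. Gapdh, of glycolysis, fell from 591, 667 and 643 to 296, 324, 305 and 317 CPM (log2 -1.03 ± 0.09, adjusted p = 4.6e-07). Actb, cytoplasmic actin, rose from 601, 774 and 805 to 1609, 1646, 1722 and 1513 CPM (log2 1.16 ± 0.11, adjusted p = 9.28e-07). Ratios of another gene to Gapdh and to Actb would therefore differ. Tbp, the TATA-binding protein, was bounded without a call at 26, 27.7 and 26.3 against 29.6, 26.6, 28.3 and 26.3 CPM (log2 0.06 ± 0.08, adjusted p = 0.554). Ppia, cyclophilin, was bounded without a call at 397, 437 and 407 against 408, 384, 362 and 388 CPM (log2 -0.10 ± 0.08, adjusted p = 0.267). Eef1a1 was the other of this kind (log2 0.11 ± 0.10, adjusted p = 0.369). Hprt and Ywhaz rose (log2 0.31 ± 0.09, adjusted p = 0.0082, and log2 0.24 ± 0.09, adjusted p = 0.0298) and Eef2 fell (log2 -0.26 ± 0.10, adjusted p = 0.0345), all within the bound. These calls ended without normal library 1 (adjusted p = 0.0549, 0.113 and 0.141), that of Ywhaz also without normal library 3 (0.0847) and that of Eef2 without UUO library 1 or 4 (0.102 and 0.0504).

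The ribosomal protein genes Rplp0 and Rpl13a rose (log2 0.49 ± 0.11, adjusted p = 0.0011, and log2 0.55 ± 0.15, adjusted p = 0.00611). The mitochondrial genes Sdha and Atp5b fell (log2 -1.64 ± 0.12, adjusted p = 6.42e-08, and log2 -1.71 ± 0.12, adjusted p = 6.42e-08). Upper-quartile scaling in place of TMM moved the median of all genes from 0.05 to 0.16, and directions near 0 are read against that shift.

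**Figure D5:**
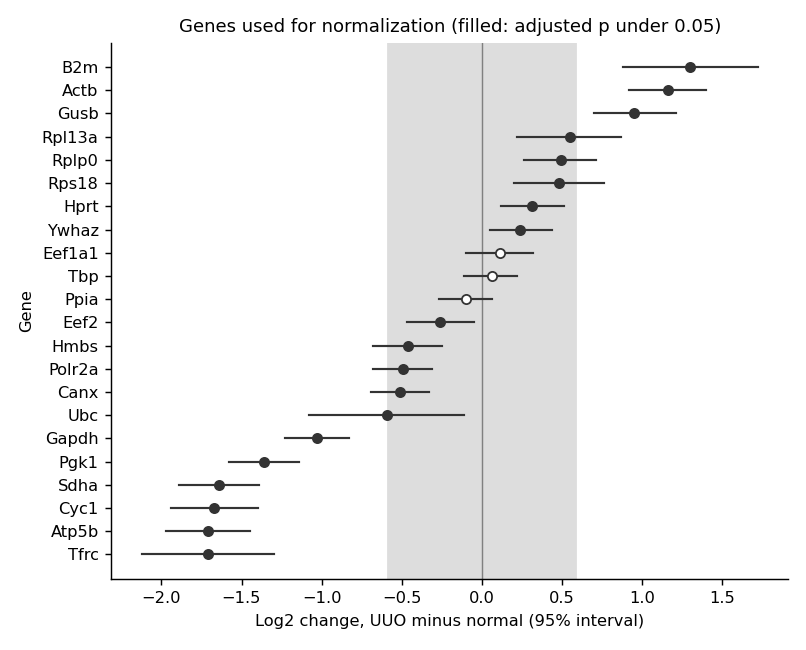
Log2 change of 22 genes used for normalization, UUO minus normal, with 95% intervals; the grey band marks 1.5-fold in either direction. Filled points passed an adjusted p under 0.05. The values run from -1.71 for Tfrc to 1.30 for B2m, and 6 intervals lie within the band.

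The response under the transgenic label was set beside that of wild type by the interaction of label and obstruction. By edgeR at an adjusted p under 0.05, 0 of 17926 genes differed (0.0%), and 1154 had an unadjusted p under 0.05 (6.44%). DESeq2 called 25 and limma-voom 0. The median 95% half-width of the difference was 0.49 on the log2 scale, so differences below about that size lay within the error for a typical gene. Of the 10950 wild-type calls, 9555 were also called in the same direction under the transgenic label and 5 in the opposite direction. Those libraries share no sample with the wild-type groups, but both sets of calls come from the same fit with a shared estimate of spread. For Trpv5 the change under that label was 2.04 on the log2 scale, and the wild-type change differed from it by -0.12 (95% interval -1.04 to 0.81). For Timp3 it was -1.31, with a difference of -0.09 (95% interval -0.59 to 0.41).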

How the data were processed

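RNA from frozen whole kidney was sequenced after a stranded mRNA preparation, per the labels' protocols. The deposited values are whole-number counts per gene and library, with no normalization. Per the submitters' processing notes the authors used STAR 2.4.1d, featureCounts 1.4.4 and build mm10. An annotation or strand setting is not given in the sources used here. Of the 47729 genes listed, 47310 matched the mouse GENCODE annotation given for mm10, which set symbols, positions and exon lengths.

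edgeR 4.0.16 (R 4.3.3) filtered genes over the 14 libraries with filterByExpr, scaled them by TMM and fitted the 4 groups with the quasi-likelihood test. Benjamini-Hochberg adjustment ran over all 17926 genes tested, with calls under 0.05. Changes beyond 2-fold were tested with glmTreat. A single value was compared by an exact permutation test over libraries (3 against 4). The procedure was tested on simulated data. There a small share of genes changed, up and down in equal numbers, with the same spread for all genes. The simulation therefore cannot show how scaling behaves where most genes change. Within each group pairs of libraries differed by more than sampling noise, with a chi-square per gene from 21.29 to 72.38 in wild type, so none was counted as a duplicate.

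Members and gene lists were chosen with earlier results of these data known. The text names Smoc2, genes with the largest gains and losses of abundance or the largest changes by the near interval bound, genes switched on or off, the 6 members with the smallest p of each list, its first 3 members and members called against most of it, and all reference genes; a few genes of the rule are not reported here. Shares on length-scaled levels used exon lengths of protein-coding, immunoglobulin and T cell receptor genes. Alternatives were other scaling, filters, libraries in the fit, a replicate block, each library left out, limma-voom (limma 3.58.1) and DESeq2 1.42.0. Some of the genes named overlap a gene on the opposite strand, and reads of such partners cannot be told apart where strand was not used in counting: B2m, Klk1, Timp1, Col4a1, Col4a2, Col4a3, Nphs1, Umod, Slc34a1, Slc12a1, Hnf4a, Hk1, Hk2, Gapdh, Ccl2, Cp, Runx1 and others, 65 in all.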

Additional observations from a re-analysis of the deposited data

Results flagged for a closer look

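Of 230 sets of 4 UUO libraries, each the CPM of a gene named above or a composition value, 13 had 1 library far from the other 3, by a gap to its nearest neighbour that passed the 95% critical value of Dixon's ratio; chance gives about 1 in 20. UUO library 2 was the far library for Birc3 (77.7 CPM), Cdkn1a (44 CPM), Fgf9 (10.6 CPM), Foxi1 (34 CPM), Runx1 (35.4 CPM) and H2-Eb1 (699 CPM). UUO library 4 was far for Aqp2 (125 CPM), Cldn14 (1.62 CPM) and Plac8 (112 CPM). UUO library 1 was far for Upk1b (73.7 CPM) and Adipoq (1.65 CPM), and UUO library 3 for Slc26a4 (18.1 CPM) and for the share of counts on ribosomal RNA loci (2.0%). With 13 of 230 the number of such sets is near that chance rate. The causes were not tested.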

How the results depend on the processing

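Over the alternatives run for each, genes changed ranged from 9664 to 11055, changes beyond 2-fold from 3025 to 3636 and genes bounded within 1.5-fold from 4349 to 4936. The percentage of calls that were higher was 51.2 and ranged from 50.5 to 59.2, the top with upper-quartile scaling. Same-numbered normal and UUO libraries did not deviate together (correlations of -0.09, -0.03 and -0.02 across genes), so the numbers are not taken to pair them; with the replicate block 10749 genes changed, and the block called 1 gene for the difference between labels, where DESeq2 called 25. Of the 218 genes named, 205 were called, 195 of these kept the call under every alternative and 0 reversed. Calls were lost by 8 without 1 library and by 7 under another alternative: Ccl28 and H2-D1 with the block, these with Krt5 and Upk1b by limma-voom, Eef2, H2-D1 and Havcr1 in the 7 wild-type libraries alone, Eef2 and Ywhaz without a filter and Eef2 with upper-quartile scaling.

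On CPM in place of length-scaled levels, 609.5 more genes held 50% of the total in UUO than in normal kidney, the share of the 100 most abundant genes differed by -8.32 percentage points and that of mitochondrial genes by -4.77. The share of the 100 most abundant genes differed by -12.8 percentage points in length-scaled levels, -6.86 without mitochondrial genes and -10.2 with all annotated genes, an alternative chosen after seeing the data, as were the counts per list without each library. With 2-fold in place of 4-fold, motif shares were 8.18% (AP-1), 12.7% (TATA box) and 14.9% (cell cycle element) of rises and 10.2% (TATA box) and 1.69% (cyclic AMP element) of falls. At these depths genes with few counts carry wide errors, and the cause of each shift was not tested.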

Other observations

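Several other gene groups were measured in the same way. Of 12 genes of infiltrating monocytes 9 rose, against 31.3% of all genes. Itgam, an integrin chain of myeloid cells, rose from 0.573, 1.01 and 0.74 to 18.4, 13.7, 17.5 and 15.8 CPM (log2 4.41 ± 0.22, adjusted p = 8.96e-09). Plac8, another monocyte gene, rose from 8.24, 9.95 and 10.2 to 60.7, 62.5, 60.4 and 112 CPM (log2 2.96 ± 0.23, adjusted p = 1.38e-07). Of 15 genes of lipid-laden and alternatively activated macrophages 10 rose and 3 fell. Mgl2, a lectin, rose from 5.6, 8.72 and 7.6 to 128, 98, 110 and 99.4 CPM (log2 3.90 ± 0.23, adjusted p = 1.74e-08). Mmp12, the macrophage elastase, rose from 2.07, 3.58 and 4.13 to 137, 76.7, 57.2 and 115 CPM (log2 4.88 ± 0.48, adjusted p = 9.69e-07). Retnla, a secreted product of alternative activation, had 5 counts in the 3 normal libraries together and was at 12.9, 24.4, 19.7 and 28 CPM in UUO kidney. Lpl, a lipase that other kidney cells also make, fell from 1550, 1914 and 1030 to 372, 302, 237 and 314 CPM (log2 -2.29 ± 0.24, adjusted p = 1.61e-06). Of 12 genes of natural killer and gamma delta T cells 7 rose, 1 fell and 4 had no call. The summed level of that list ran from 69.9 to 73.7 CPM in normal and from 68.9 to 80.6 CPM in UUO libraries. The receptor gene Klrk1 was among those that rose (log2 3.46 ± 0.34, adjusted p = 9.17e-07, or log2 4.05 without normal library 3). Of 14 genes of B cells and plasma cells 7 rose and 7 had no call, where 31.3% of all genes rose. Ighm, the heavy chain of immunoglobulin M, was among those that rose, from 4.76, 8.38 and 11.3 to 61.5, 41.5, 61.7 and 43.8 CPM (log2 2.67 ± 0.30, adjusted p = 3.66e-06). The libraries of the groups did not overlap for any of these named immune cell genes, as was so for 60.8% of all genes tested.

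In the wall of vessels 9 of 13 genes of smooth muscle and pericytes rose. Mcam, an adhesion molecule of pericytes and some endothelium, rose from 12.2, 16.7 and 18.5 to 62.3, 50.2, 52.3 and 65 CPM (log2 1.86 ± 0.17, adjusted p = 5.26e-07). Of 8 genes of lymphatic endothelium 2 rose and 2 fell, and of 11 of arterial and venous endothelium 3 rose and 2 fell, where 31.3% of all genes rose and 29.8% fell. Of 20 acute-phase and antimicrobial genes 14 rose. Cd14, a receptor for bacterial lipid, rose from 21.5, 19.2 and 20.7 to 264, 270, 345 and 244 CPM (log2 3.78 ± 0.26, adjusted p = 5.29e-08). Saa1, an acute-phase protein, had 0 counts in the normal libraries and was at 1.22, 1.31, 0.177 and 0.983 CPM in UUO kidney, at least 20.4-fold above a floor of 3 counts for the normal group. Defb1, a defensin that tubules make all the time, fell from 270, 346 and 278 to 119, 174, 119 and 186 CPM (log2 -0.99 ± 0.19, adjusted p = 0.000416). Among genes of division arrest and of the p53 response 12 of 19 rose and 2 fell. Btg2, an inhibitor of division, rose from 26.1, 24.7 and 27 to 70.7, 77.4, 83.4 and 89.7 CPM (log2 1.63 ± 0.10, adjusted p = 2.43e-08). Ccng1, a target of p53, fell from 208, 253 and 249 to 129, 121, 107 and 144 CPM (log2 -0.92 ± 0.10, adjusted p = 2.32e-06).

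Genes of hormone, mineral and osmolyte control rose about as often as all genes (31.3%) and fell in a larger share than the 29.8% of all genes, without a test of either. Of 16 genes of calcium, phosphate and magnesium control 9 fell and 5 rose. Calb1, the calcium buffer of the distal nephron, fell from 470, 726 and 734 to 38.2, 34.5, 30.4 and 76 CPM (log2 -3.85 ± 0.29, adjusted p = 1.07e-07). Stc2, a secreted stanniocalcin, rose from 5.91, 6.99 and 6.19 to 36.5, 33.2, 39.1 and 25.2 CPM. Of 25 genes of the renin and other vasoactive systems 11 fell and 8 rose. Ptger3, a prostaglandin receptor of the thick limb and distal nephron, fell from 146, 125 and 179 to 22.7, 43.6, 23.4 and 37.1 CPM (log2 -2.24 ± 0.22, adjusted p = 1.07e-06). Of 16 osmolyte and urea genes 8 fell and 4 rose. Slc38a2, an amino acid importer that high salt and lack of amino acids both raise, rose from 102, 76 and 102 to 226, 214, 213 and 217 CPM (log2 1.22 ± 0.13, adjusted p = 2.81e-06). Genes that differ between the sexes in mouse kidney fell in 9 of 13 cases. Kap, an androgen-responsive gene of the proximal tubule, fell from 11267, 26845 and 12698 to 712, 2874, 1009 and 1082 CPM (log2 -3.58 ± 0.48, adjusted p = 1.85e-05), and normal library 2 was the highest of the 7 libraries. Without UUO library 2 the change of Kap was log2 -4.17. Cyp2j13, a cytochrome of the same list, rose from 1.01, 1.12 and 0.662 to 15, 6.7, 12.2 and 10.2 CPM (log2 3.58 ± 0.43, adjusted p = 6.95e-06).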
